A study of Mus musculus with 6 samples.

Results

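The MHC class II genes H2-Aa, H2-Ab1, H2-Eb1, Cd74, H2-DMa and H2-DMb1 and their regulator Ciita, taken by gene symbol as 7 of the 20394 genes counted, were followed across the immune cells of arthritic mouse joints. The cells were CD45+ leukocytes sorted from enzyme-digested synovium of male C57BL/6 mice with antigen-induced arthritis, bought at an age of 8 weeks and housed for at least 2 weeks before the experiment. All mice had been immunized with methylated bovine serum albumin (mBSA, 10 µg) in complete Freund's adjuvant and were challenged at day 21 with 100 µg of mBSA injected into the knee, and cells were taken 3 days later. From the challenge on, 2 samples came from mice given the PBS vehicle and 4 from mice given 300 µg of PEPITEM, a peptide known to restrain leukocyte migration through endothelium, both by the intraperitoneal route. Single-cell RNA-seq gave unique molecular identifier (UMI) counts in 6 libraries, which are numbered in the cell barcodes but are not tied there to a treatment, so that no comparison of vehicle with PEPITEM was made and a difference between libraries cannot be told apart from treatment.

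MHC class II molecules are pairs of an alpha and a beta chain that carry peptides taken up from outside the cell to the surface, where Cd4 T cells read them. H2-Aa and H2-Ab1 encode the alpha and beta chains of the A molecule, and H2-Eb1 encodes the beta chain of the E molecule, whose alpha chain is not made in C57BL/6 mice because of a deletion in its gene. Cd74, the invariant chain, fills the groove of new class II molecules and guides them to endosomes, and H2-DMa and H2-DMb1 encode the DM molecule that swaps the remnant of Cd74 for antigenic peptide. Ciita, the class II transactivator, does not bind DNA itself but is recruited to a set of conserved promoter boxes, and it is on in dendritic cells and B cells and inducible by interferon gamma in macrophages. Dendritic cells, macrophages and B cells are the classical users of this pathway in an inflamed joint.

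In the GENCODE M21 annotation of the mouse build GRCm38, 5 of the 7 genes lie together on chromosome 17, with H2-DMa (ENSMUSG00000037649) at 34119541 to 34139101, H2-DMb1 (ENSMUSG00000079547) at 34153072 to 34160230, H2-Ab1 (ENSMUSG00000073421) at 34257689 to 34269419 and H2-Eb1 (ENSMUSG00000060586) at 34305867 to 34316674, all on the plus strand. H2-Aa (ENSMUSG00000036594) lies among them at 34282744 to 34287823 on the minus strand. The promoters are shown because all 7 genes were called together in several comparisons of cell classes and because Ciita acts through such boxes. RefSeq windows of build GRCm38.p6, running from 250 bases before to 50 bases after a start site, were at hand for 4 of the 7 genes, and 3 of them held recognizable boxes. The stretches with these boxes are given 5′ to 3′ on the strand of the gene, with capitals marking the Y box core TGATTGG, the X box letters AACNGATG or the cyclic-AMP response letters TGACGTCA.
H2-DMb1, chr17:34153087-34153146, plus strand: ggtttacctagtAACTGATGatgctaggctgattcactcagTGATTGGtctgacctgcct
H2-Aa, chr17:34287855-34287909, minus strand: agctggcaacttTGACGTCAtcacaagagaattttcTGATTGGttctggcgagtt
H2-Eb1, chr17:34305766-34305824, plus strand: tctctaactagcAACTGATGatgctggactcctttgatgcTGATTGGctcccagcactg
The Y box core began 50 bases before the RefSeq start site in H2-Aa, 61 before it in H2-Eb1 and 63 before it in H2-DMb1. In H2-Eb1 the X box letters began 28 bases ahead of the Y box core, and in H2-DMb1 29 bases ahead. The H2-DMb1 stretch lies inside the GENCODE gene, whose annotated start lies ahead of the RefSeq start. Both windows of H2-DMa held none of the 3 motifs, which says only that these letters are not in these windows. Searched on both strands, TGATTGG was held by 2568 of all 32851 windows (7.82%), AACNGATG by 762 (2.32%), TGACGTCA by 588 (1.79%) and the first 2 together by 61 (0.186%). The motifs were picked after these windows had been seen, so the matches are a description.

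Cd74 (ENSMUSG00000024610) and Ciita (ENSMUSG00000022504) lie outside this cluster. In the same annotation Cd74 covers 60803848 to 60812652 of chromosome 18 and Ciita 10480059 to 10528418 of chromosome 16, both on the plus strand.

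The 6 libraries held 2919 to 9345 cells each, 32953 in all, with 47273569 to 123367661 UMIs per library and medians of 9923 to 14001 UMIs per cell. Of 32815 distinct barcodes, 138 occurred in more than 1 library. A UMI of Ptprc, the gene of the CD45 sorting marker, was seen in 95.8% of cells, and 109 cells carried fibroblast markers. Cells were assigned to 27 classes by marker genes that include none of the 7 genes, which placed 16460 cells (49.9%) in exactly 1 class, left 16437 in none and put 56 in several. Levels are UMIs per 1000000 (CPM) of the summed cells of a class, and since each molecule is tagged once at its 3′ end, gene length does not enter. A gene was called different between a pair of classes when its library values did not overlap, using libraries with at least 10 cells of the class, and no p-value was computed because the libraries are not replicates of a condition.

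The class II genes were highest in type 2 dendritic cells, defined by Cd209a and Flt3 and specialized in priming Cd4 T cells. Their H2-Aa level was 7819 CPM, against 6774 in migratory dendritic cells, 5618 in type 1 dendritic cells, 4576 in Cxcl9 macrophages and 2115 in Ighd B cells. Classical monocytes were at 180 CPM, pre-B cells at 132 and neutrophils at 15.4. Cd74 had the highest CPM of the 7 genes in every class but pro-B cells, which had 124 CPM of H2-Ab1 and 106 CPM of Cd74. H2-DMa and H2-DMb1 were lower by an order of magnitude, at 744 and 816 CPM in type 2 dendritic cells, and Ciita lower again at 71.2 CPM. H2-DMb1 counts are uncertain because its near-identical neighbor H2-DMb2 can share reads with it.

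**Figure D1:**
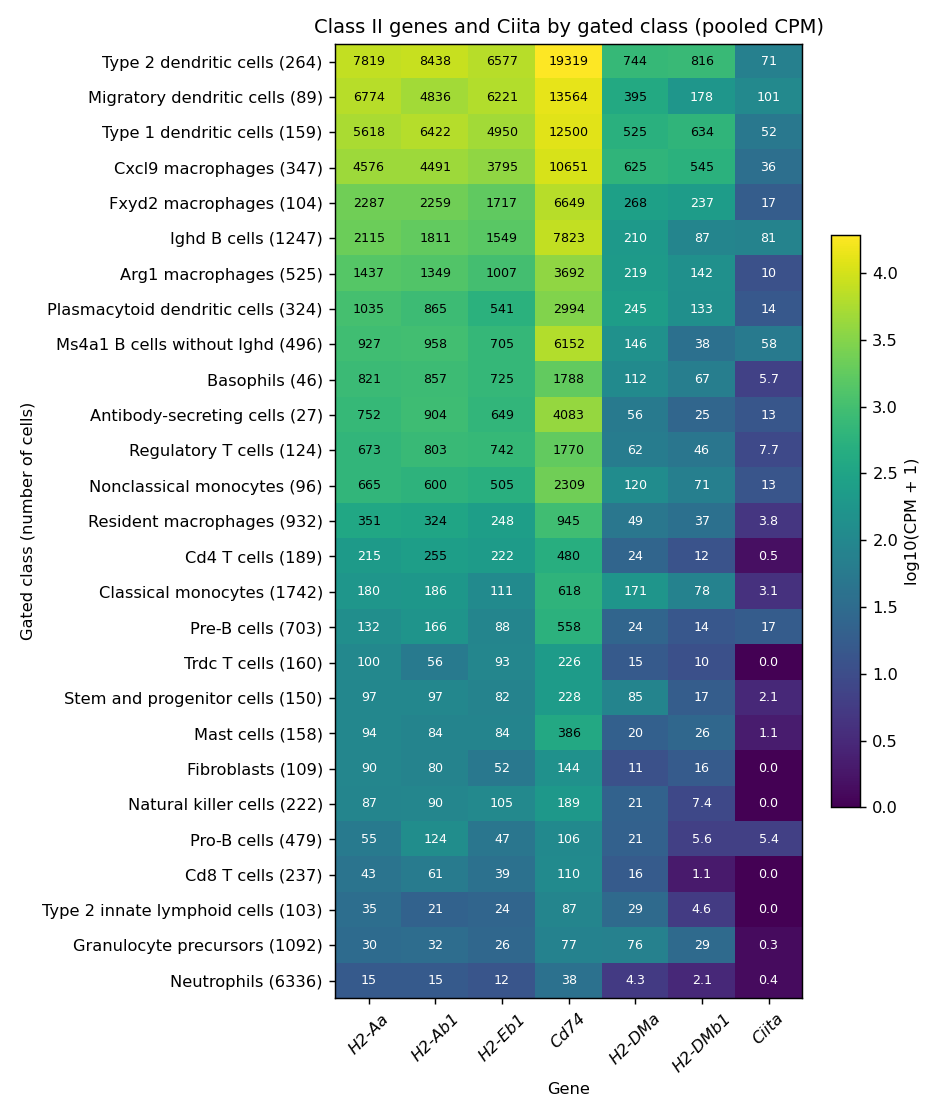
Heat map of log10(CPM + 1) of the 7 genes (columns) in the marker-gated classes (rows), each value from the summed UMIs of all cells of a class. Dendritic cells, Cxcl9 macrophages and Ighd B cells are at the high end together with Fxyd2 macrophages, with H2-Aa between 2115 and 7819 CPM except for plasmacytoid dendritic cells at 1035 CPM, and neutrophils lie at 15.4 CPM.

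Neighbors in the order of levels seldom separated by library. For H2-Aa, H2-Ab1, H2-Eb1 and H2-DMa no class had all its library values above those of the next class in the order. For Cd74 that held for 1 step, B cells with Ms4a1 and without Ighd, where the pooled level was 6152 CPM. For H2-DMb1 and for Ciita it held for Cxcl9 macrophages, which stood at 545 CPM of H2-DMb1 and 36.5 CPM of Ciita. The order of Ciita differed from that of H2-Aa, with migratory dendritic cells at 101 CPM, Ighd B cells at 80.8, type 2 dendritic cells at 71.2, B cells without Ighd at 57.6 and type 1 dendritic cells at 51.7.

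**Figure D2:**
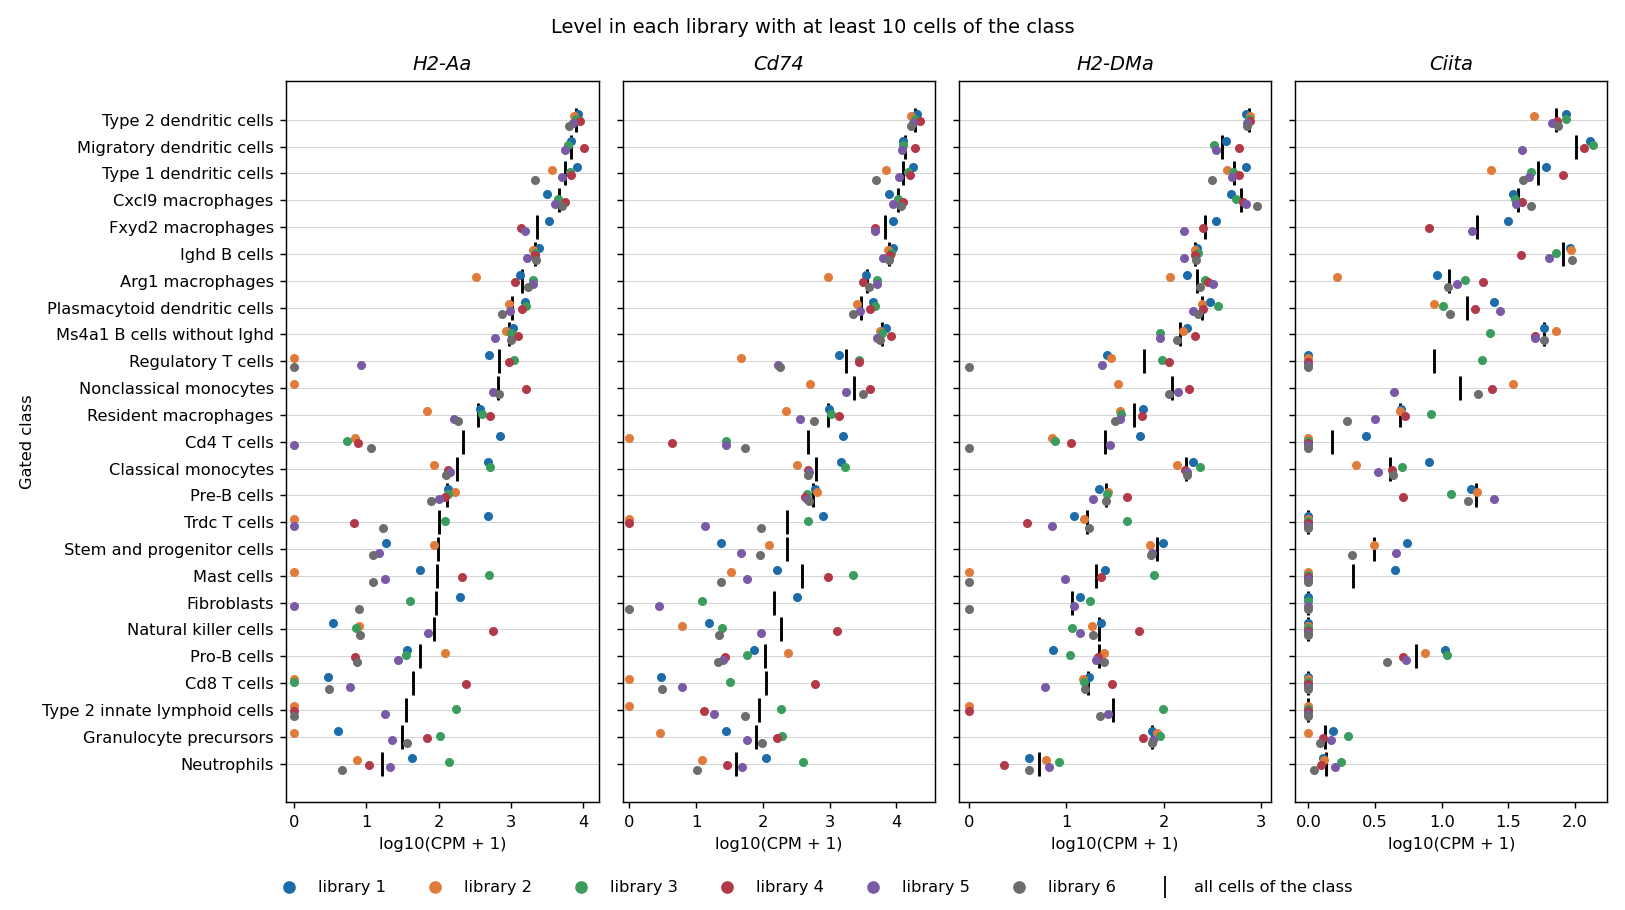
H2-Aa, Cd74, H2-DMa and Ciita by class on a log10(CPM + 1) axis, with 1 colored dot per library that held at least 10 cells of the class and a black bar for the level of all its cells. In type 2 dendritic cells the H2-Aa dots span 6263 to 8825 CPM, while in Arg1 macrophages they span 331 to 2013 CPM.

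Type 2 dendritic cells were set against classical monocytes, the circulating Ccr2+ Ly6c2+ cells that enter inflamed tissue and can take on features of antigen-presenting cells. Library values of H2-Aa ranged from 6263 to 8825 CPM (median 7641) in the dendritic cells and from 85.2 to 511 CPM (median 139) in the monocytes, so that every dendritic value lay more than an order of magnitude above every monocyte value. All 7 genes were higher without overlap, where 7.46% of all genes were, and their median log2 difference was 4.96 beside -0.12 over all genes. The 3 chain genes differed most, by 43.5-fold for H2-Aa, 45.3-fold for H2-Ab1 and 59.3-fold for H2-Eb1, followed by Cd74 at 31.3-fold and Ciita at 23.03-fold. The DM genes differed least, by 10.5-fold for H2-DMb1 and 4.36-fold for H2-DMa. H2-DMa alone stood at 171 CPM in monocytes (136.9 to 234 by library), beside 180 CPM of H2-Aa. Its ratio to H2-Aa was 0.95 in monocytes, from 0.41 in library 1 and 0.46 in library 3 to 1.61 in library 2, and 0.10 in type 2 dendritic cells (0.08 to 0.11). At least 1 H2-DMa UMI was seen in 84.0% of classical monocytes (95% Wilson interval 82.2 to 85.6) and an H2-Aa UMI in 17.9% (16.2 to 19.8). After each cell was thinned to 2000 UMIs these shares were 27.6% and 9.40%.

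Type 1 dendritic cells, the Clec9a+ cells known for cross-presentation, overlapped with type 2 dendritic cells in every one of the 7 genes. Their H2-Aa values in libraries 1 to 6 were spread from 2141 to 8184 CPM, with libraries 2 and 6 lowest, and none of the 7 genes was higher in type 2 cells without overlap, beside 4.21% of all genes. Without library 1 the count was 2, namely Cd74 (at least 16527 CPM against at most 15896) and H2-DMa (at least 719 against at most 597). H2-Aa still overlapped there, and the share of all genes without that library is not given here, so this count is a description. Within libraries type 2 cells were higher in 6 of 6 for H2-Aa and Cd74, 2 of the 7 genes beside 10.4% of all genes, and in 5 of 6 for the other 5 genes. No UMI of the 3 chain genes or Cd74 was seen in 17.0% of thinned type 1 cells and in 2.65% of thinned type 2 cells, while 79.9% and 94.7% held at least 10. These shares pool libraries that differed for type 1 cells. Before thinning an H2-Aa UMI was seen in 61.9% of them in library 2 and 40% in library 6, against 88% to 100% in the others.

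Migratory dendritic cells, which have switched on Fscn1 and Ccr7 and carry antigen to lymph nodes, had lower levels of both DM genes than type 2 dendritic cells. The ranges of H2-Aa, H2-Ab1, H2-Eb1, Cd74 and Ciita overlapped between these classes. H2-DMa stood at 326 to 598 CPM in the 4 libraries with at least 10 such cells and at 699 to 777 CPM in type 2 dendritic cells, with no overlap and a ratio of 0.53. H2-DMb1 stood at 120 to 401 CPM against 731 to 887 CPM, a ratio of 0.22. These 2 of the 7 genes were lower without overlap where 14.5% of all genes were, and none was higher where 8.2% were. Library 4, with 12 migratory cells, was the highest of the 4 libraries for H2-Aa, H2-DMa and H2-DMb1. Without it H2-Ab1 and Cd74 also fell below the type 2 range, making 4 of 7 beside 18.8% of all genes. Within libraries the same 4 genes were lower in migratory cells in 4 of 4, beside 29.6% of all genes.

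The balance between chains differed between migratory and type 2 dendritic cells. Migratory cells had 0.71 H2-Ab1 UMIs for each H2-Aa UMI, between 0.69 and 0.78 by library, whereas type 2 dendritic cells had 1.08 (1.00 to 1.13) and type 1 dendritic cells 1.14 (1.05 to 1.18). The migratory range overlapped with neither. Plasmacytoid dendritic cells at 0.84 (0.76 to 1.04) did overlap with migratory cells, Ighd B cells were at 0.86 (0.79 to 0.90), and all cells together were at 1.00. The ratio of H2-DMb1 to H2-DMa was 0.45 in migratory cells (0.33 to 0.67) and 1.10 in type 2 cells (1.01 to 1.19), again without overlap. H2-DMb2, the near-identical DM beta gene, went the other way, with 298 CPM in migratory cells (260.5 to 418 by library) and 109 CPM in type 2 cells (28.1 to 188). Reads of H2-DMb1 and H2-DMb2 may be split differently by the counting, and whether that plays a part in either value was not tested.

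**Figure D3:**
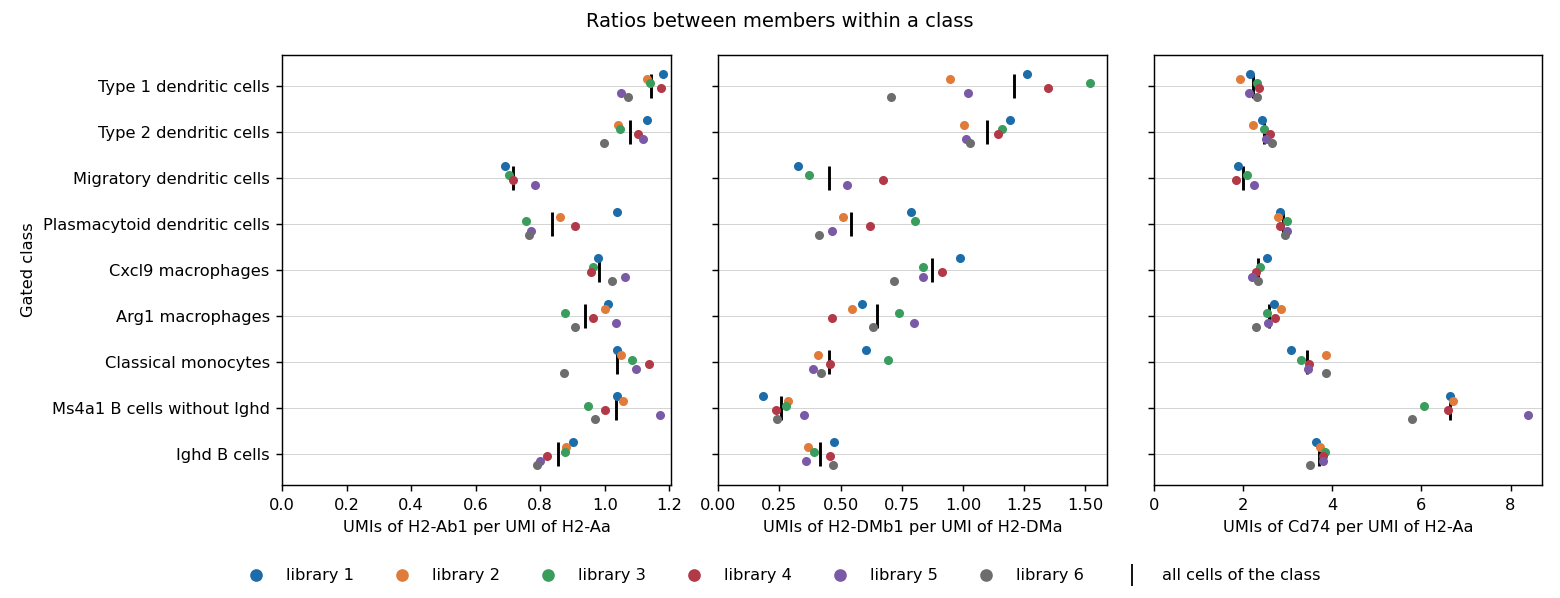
Ratios of UMI counts within a class for H2-Ab1 to H2-Aa, H2-DMb1 to H2-DMa and Cd74 to H2-Aa in 9 classes, with a point per library and a bar for all cells of the class. Migratory dendritic cells lie at 0.71 for H2-Ab1 to H2-Aa and B cells without Ighd at 6.64 for Cd74 to H2-Aa.

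Plasmacytoid dendritic cells, the Siglech+ interferon producers, carried all 7 genes at a lower level than type 2 dendritic cells. H2-Aa ranged from 760.1 to 1624 CPM by library (median 1200), below the lowest type 2 value of 6263 CPM. All 7 genes were lower without overlap where 8.14% of all genes were. The ratios were 0.13 for H2-Aa, 0.10 for H2-Ab1, 0.08 for H2-Eb1, 0.15 for Cd74, 0.33 for H2-DMa, 0.16 for H2-DMb1 and 0.20 for Ciita, so that H2-DMa was the least reduced. H2-Eb1 was low even against H2-Aa, at 0.52 UMIs per H2-Aa UMI (0.46 to 0.60 by library), where type 2 cells had 0.84 (0.76 to 0.91).

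Among macrophages the class II genes were highest in the class chosen by Cxcl9, a chemokine gene induced by interferon gamma. Cxcl9 macrophages had 4576 CPM of H2-Aa, Arg1 macrophages without Cxcl9 had 1437, and Lyve1+ Mrc1+ resident macrophages had 351. In the 5 libraries with at least 10 Cxcl9 macrophages their H2-Aa values were 3109, 4384, 5561, 4056 and 5121 CPM, all above the 6 values of 331 to 2013 CPM in Arg1 macrophages. All 7 genes were higher in Cxcl9 than in Arg1 macrophages without overlap, beside 2.66% of all genes, by 2.85-fold to 3.84-fold. The median log2 difference of the 7 genes was 1.72 and that of all genes -0.09. Ciita followed with 33.1 to 46.0 CPM against 0.63 to 19.3 CPM. Irf1, a transcription factor induced by interferon gamma, was called higher as well, at 185 against 120 CPM. Its ranges all but touched, with 152.68 CPM in the lowest Cxcl9 library and 152.38 CPM in the highest Arg1 library. Since Cxcl9 is a target of the same signal and chose these cells, their Irf1 level is a description of the class. Ciita is inducible by that signal in macrophages too. Its level and the count of 7 genes in this pair are therefore also descriptions of cells chosen by Cxcl9.

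Library 2 was the lowest for Arg1 macrophages in all 7 genes. Its Arg1 macrophages had 331 CPM of H2-Aa and 0.63 CPM of Ciita, while the other 5 libraries had 1151 to 2013 CPM of H2-Aa. Irf1 in the same cells was 28.9 CPM in library 2 and 95.4 to 152 CPM in the others. In classical monocytes library 2 was also lowest, with 85.2 CPM of H2-Aa and 45.2 CPM of Irf1, and libraries 1 and 3 were highest, with 485 and 511 CPM of H2-Aa. Resident macrophages of library 2 had the lowest H2-Aa (69.0 CPM) and the highest Irf1 (307 CPM, against 102 to 184 CPM in the others). Type 2 dendritic cells of library 2 had the lowest Irf1 (23.3 CPM, against 68.1 to 190 CPM) with H2-Aa inside the range of the others. The part of the interferon signal in these differences was not tested.

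Resident macrophages were lower than Arg1 macrophages in H2-DMa and H2-DMb1, 2 of the 7 genes, where 8.98% of all genes were lower without overlap, and higher in none, where 16.5% were. H2-DMa stood at 30.7 to 60.5 CPM by library against 116 to 320 CPM in Arg1 macrophages. H2-Aa overlapped, at 69.0 to 504 CPM against 331 to 2013 CPM, the Arg1 value inside the resident range being that of library 2. Without library 2 all 7 genes were lower in resident macrophages, beside 13.2% of all genes. Set against each other within each library, resident macrophages were lower in all 6 libraries for 6 of the 7 genes, beside 15.8% of all genes, and for Ciita in 5 of 6. Class II was uneven among the resident cells, since 71.9% of the thinned cells had no UMI of the chain genes or Cd74 and 8.35% had at least 10. A further macrophage class, marked by Fxyd2 and Aqp1 without Lyve1, had 2287 CPM of H2-Aa and 17.4 CPM of Ciita in 104 cells. Only 3 libraries held at least 10 of these cells. H2-Aa was 3339 CPM in library 1, 1385 in library 4 and 1537 in library 5, and Ciita was 30.4, 7.08 and 15.7 CPM. Of these thinned Fxyd2 cells, 41.2% had no such UMI and 42.2% had at least 10.

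Within the B lineage the class II genes were low in precursors and high in mature cells. Pro-B cells, which rearrange the heavy chain gene, had 55.4 CPM of H2-Aa and 106 CPM of Cd74. Pre-B cells had 132 and 558 CPM, B cells with Ms4a1 but without an Ighd UMI 927 and 6152 CPM, and Ighd B cells 2115 and 7823 CPM. Ciita stood at 5.44, 17.0, 57.6 and 80.8 CPM in the same classes. Immature B cells of this kind are a bone marrow population, and their presence in the synovial digest is given here as found.

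**Figure D4:**
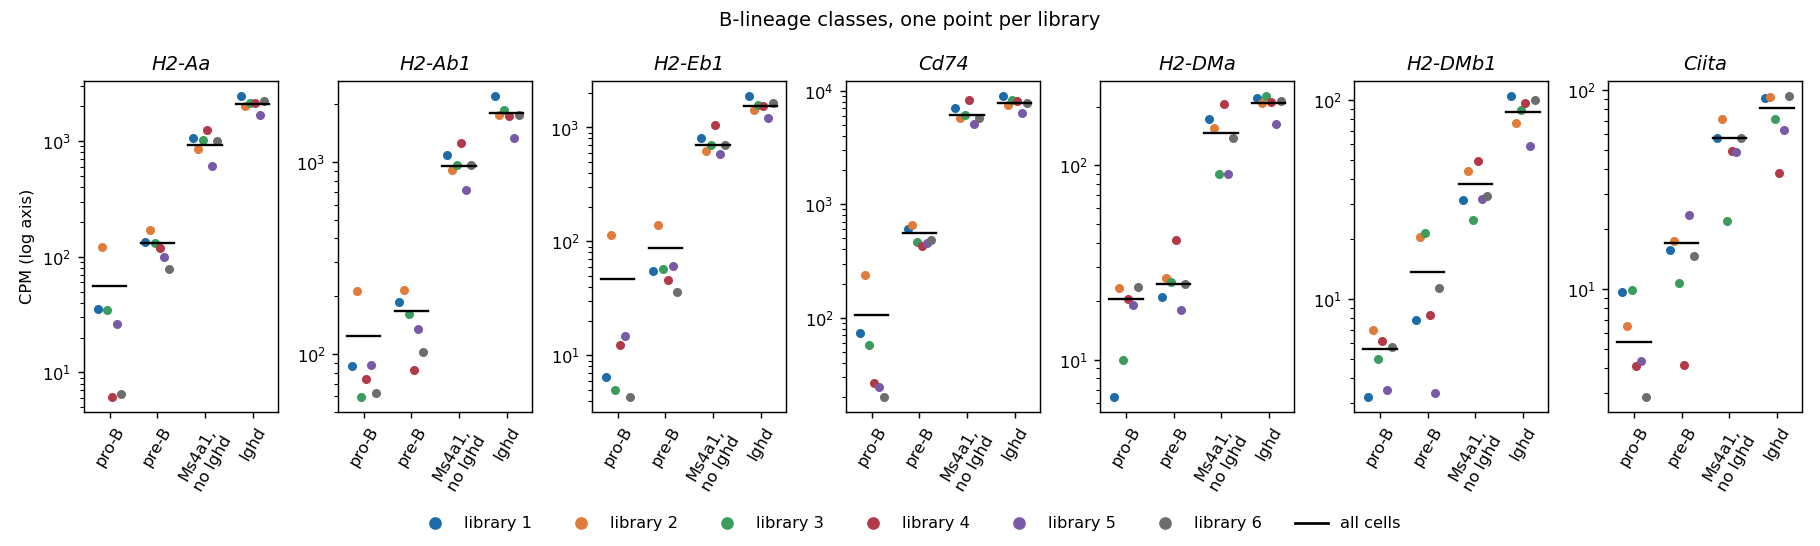
CPM of each of the 7 genes on a log axis in pro-B cells, pre-B cells, B cells without Ighd and Ighd B cells, with a point per library and a bar for all cells of a class. The bars of Cd74 stand at 106, 558, 6152 and 7823 CPM, and library 2 is the highest pro-B point at 236 CPM.

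Ighd B cells and pre-B cells did not overlap in any of the 7 genes. H2-Aa ranged by library from 1669 to 2453 CPM (median 2129) in Ighd B cells and from 78.0 to 169 CPM (median 126) in pre-B cells. All 7 genes were higher in Ighd B cells where 8.91% of all genes were, and their median log2 difference was 3.44 beside -0.06 over all genes. The fold was 17.7 for H2-Eb1, 16.1 for H2-Aa, 14.01 for Cd74, 10.9 for H2-Ab1, 8.57 for H2-DMa, 6.42 for H2-DMb1 and 4.76 for Ciita, so that the regulator differed least. An H2-Aa UMI was seen in 88.6% of Ighd B cells (81.4% after thinning) and in 24.5% of pre-B cells (11.97%). Cd74 was seen in 99.3% of Ighd B cells (98.1%) and in 59.2% of pre-B cells (40.0%). Ciita was seen in 31.3% of Ighd B cells (14.8%) and 6.69% of pre-B cells (2.56%).

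The step from pro-B to pre-B cells was called for Cd74 only, 1 of the 7 genes beside 8.9% of all genes. Cd74 ran from 427 to 658 CPM in pre-B cells and from 20.1 to 236 CPM in pro-B cells, a 5.28-fold difference. Library 2 supplied the high pro-B values, with 121 CPM of H2-Aa against 6.1 to 35.3 CPM in the other 5 libraries. An H2-Aa UMI was seen in 18.5% of its pro-B cells, but in 33.3% of those of library 1, which stood at 35.3 CPM. Of thinned pro-B cells 0.42% held at least 10 UMIs of the chain genes and Cd74 together, with a highest count of 86. Whether a few such cells set the level of library 2 was not tested. Without library 2, H2-Aa, H2-Eb1 and Cd74 were called, 3 of 7 beside 9.69% of all genes. Within libraries pre-B cells were higher in 6 of 6 for H2-Aa, H2-Ab1, H2-Eb1, Cd74 and Ciita, 5 of 7 beside 17.1% of all genes. Pro-B cells had more H2-Ab1 than other chain genes, with a UMI of H2-Ab1 in 40.1% of cells (14.3% after thinning) against 15.0% for H2-Aa (3.99%) and 11.3% for H2-Eb1 (2.52%).

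B cells without an Ighd UMI, which can include both immature and switched cells, lay between pre-B and Ighd B cells. Against pre-B cells 6 of the 7 genes were higher without overlap, all but Ciita, where 6.13% of all genes were. Ciita overlapped at 21.9 to 71.3 CPM against 4.14 to 23.6 CPM, but was called too with per-cell means, with 1 more marker in every gate and without library 3 or library 5, and was higher within each of the 6 libraries. Ighd B cells were higher again in 4 of the 7 genes beside 1.32% of all genes, by 2.28-fold for H2-Aa, 1.89-fold for H2-Ab1, 2.20-fold for H2-Eb1 and 2.31-fold for H2-DMb1. H2-DMb1 was no longer called with per-cell means, and neither it nor H2-Ab1 with 1 more marker in every gate, which left 2 genes. Cd74 and Ciita were not among them, with 7823 against 6152 CPM and 80.8 against 57.6 CPM and overlapping libraries. The ratio of Cd74 to H2-Aa was accordingly 6.64 in B cells without Ighd (5.79 to 8.39 by library) and 3.70 in Ighd B cells (3.51 to 3.84), without overlap, and 2.47 in type 2 dendritic cells (2.22 to 2.64). The 2 B-cell classes had similar depth, with medians of 5787 and 5895 UMIs per cell.

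In antibody-secreting cells, which are known to silence Ciita, only 27 cells were found and only library 6 held at least 10, so no comparison was made. Their Ciita level was 13.2 CPM, with 752 CPM of H2-Aa and 4083 CPM of Cd74.

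H2-DMa and H2-DMb1 were also present in granulocyte precursors, the Mpo+ Elane+ cells that make the primary granules of neutrophils, where the other class II genes were found in few cells. H2-DMa stood at 59.9 to 89.98 CPM by library in these cells and at 1.29 to 7.52 CPM in neutrophils, a 17.5-fold difference. H2-DMb1 stood at 28.0 to 44.5 CPM against 0.82 to 9.78 CPM, a 13.5-fold difference. These 2 of the 7 genes were called, but 59.8% of all genes were higher in the precursors by this measure, with a median log2 difference of 1.04 over the 6 of the 7 genes tested and 1.08 over all genes, so the count is below the background share. H2-Aa ranged from 0 to 104 CPM in the precursors and from 3.68 to 138 CPM in neutrophils. Depth differed, with medians of 32249.5 UMIs per precursor and 8918 per neutrophil. An H2-DMa UMI was found in 62.9% of precursors (12.9% after thinning) and 2.73% of neutrophils (0.444%), while an H2-Aa UMI was found in 3.30% (1.56%) and 2.60% (0.998%). Cd74 was found in 8.42% of precursors (2.67%). In stem and progenitor cells H2-DMa was found in 65.3% of 150 cells (12.1% after thinning), H2-Ab1 in 32.7% (8.05%) and H2-Aa in 13.3% (4.03%), and the ratio of H2-DMb1 to H2-DMa was 0.20.

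The correction for free RNA that the authors applied bears on the low values. In the deposited counts some entries are stored as 0, which is read here as a count lowered to 0 by that correction. Of the H2-Aa entries 79.8% were stored as 0 in neutrophils and 83.9% in granulocyte precursors, against 0.39% in type 2 dendritic cells. For H2-DMa the share was 3.103% in granulocyte precursors and 36.9% in neutrophils. Cd74 had the largest share of stored zeros over all cells, 25.7%, followed by H2-Ab1 at 20.1%, H2-Aa at 19.9% and H2-Eb1 at 19.2%, with 4.01% for H2-DMb1, 3.15% for H2-DMa and 0.96% for Ciita. An H2-Aa UMI was seen in 2.60% of neutrophils, 1.74% to 7.69% by library. The neutrophil levels, highest in library 3 at 138 CPM, are not read as expression. They are not an even background either. Of thinned neutrophils 0.269% held at least 10 UMIs of H2-Aa, H2-Ab1, H2-Eb1 and Cd74 together, with a highest count of 97. In thinned granulocyte precursors that share was 1.01%, with a highest count of 48. Where these counts come from was not tested.

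In T cells, innate lymphoid cells, mast cells, basophils and fibroblasts a few cells held most of the class II UMIs. In 9 such classes 20 cells had at least 10 thinned UMIs of H2-Aa, H2-Ab1, H2-Eb1 and Cd74 and 1292 had fewer, and the 20 held 94.7% of the UMIs of the 4 genes. The 1292 cells had 6.64 CPM of H2-Aa and 30.4 CPM of Cd74. In type 2 innate lymphoid cells the 1 such cell held 46.5%. In Cd4 T cells 1 cell held 96.6% of these UMIs and set the level of library 1, 712 CPM of H2-Aa, while the other 5 libraries stood at 0 to 10.5 CPM. In regulatory T cells 6 cells held 96.8%, yet the other 117 cells still had 121 CPM of Cd74, and a Cd74 UMI was seen in 41.1% of all regulatory T cells (20.3% after thinning) against 9.68% for H2-Aa (7.32%). In basophils 3 cells held 98.6%. Basophils of library 3 stood at 3301 CPM of H2-Aa and those of the other 5 libraries at 0 to 32.2 CPM. The 20 cells had a median of 23851.5 UMIs against 8643 in the rest. Summed together they had more Lyz2 (2193 against 113 CPM), Cd68 (177 against 5.18 CPM) and Flt3 (76.1 against 1.83 CPM). These genes of myeloid and dendritic cells were chosen after their values had been seen. They were not all present in each class. Lyz2 was at 0 CPM in such cells of the Cd4 T, Cd8 T and natural killer classes. Flt3 was at 0 CPM in those of the Cd8 T, type 2 innate lymphoid, basophil and fibroblast classes. Of the other genes looked at, Cst3 was at 2980 against 785 CPM, S100a8 at 2217 against 743 and the B-cell gene Cd79b at 5.71 against 3.80. S100a8 was at 0 CPM, below the rest, in such cells of the Cd4 T, natural killer, mast cell and fibroblast classes. It was above the rest in those of the regulatory T, type 2 innate lymphoid and basophil classes. Whether these barcodes hold more than 1 cell was not tested. Ciita was at 0 UMIs in Cd8 T cells, Trdc T cells, natural killer cells, type 2 innate lymphoid cells and fibroblasts, where a count of 0 allows up to 1.08, 1.78, 1.23, 3.48 and 1.67 CPM.

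Ciita counts were sparse, with a UMI in 9.67% of all cells (2.54% after thinning) and in 53.4% of type 2 dendritic cells (15.5%), so the cells with and without a Ciita UMI were compared within classes. In classical monocytes the 59 cells with a Ciita UMI had 1152 CPM of H2-Aa and the 1683 without had 148, a ratio of 7.81, and the former were higher in all 5 libraries that could be compared. Their median depths were 14252 and 14842 UMIs. In resident macrophages 36 cells with Ciita had 2885 CPM of H2-Aa against 185 CPM in 896 cells, a ratio of 15.6, higher in 4 of 4 libraries, and medians of 15807 and 12026 UMIs. In Arg1 macrophages the ratio was 3.25 (5 of 5 libraries) and in Cxcl9 macrophages 1.64 (5 of 5). It was 1.19 in Ighd B cells (5 of 6 libraries), 1.15 in type 2 dendritic cells (3 of 6), 1.71 in B cells without Ighd (4 of 6) and 1.37 in migratory dendritic cells (3 of 4). Pre-B cells had a ratio of 2.47 (4 of 4) and pro-B cells 1.76 (1 of 2). Plasmacytoid dendritic cells had 1.76 (4 of 4) and type 1 dendritic cells 1.78 (5 of 6). In migratory cells the DM genes differed more than H2-Aa, by 2.88 for H2-DMa and 5.74 for H2-DMb1, higher in 4 of 4 libraries, with medians of 19444 UMIs in the 37 cells with Ciita and 15273 in the 52 without. The part of depth in these ratios was not tested.

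Classes also differed in how class II UMIs were spread over their cells. Of thinned type 2 dendritic cells 94.7% had at least 10 UMIs of H2-Aa, H2-Ab1, H2-Eb1 and Cd74 together, with a median of 88. In Ighd B cells 85.4% did, with a median of 29, and in Cxcl9 macrophages 79.0%, with a median of 42. Arg1 macrophages were divided, with 34.7% at 0 and 36.2% at 10 or more, and a median of 3. This split pools libraries that differed. Before thinning an H2-Aa UMI was seen in 31.5% of the 89 Arg1 macrophages of library 2, against 56.9% to 75.1% in the other libraries. Pre-B cells differed from monocytes in this respect, since 48.6% of them had 1 to 9 such UMIs and 1.42% had 10 or more, while 20.5% of classical monocytes had 1 to 9 and 6.57% had 10 or more. Neutrophils had none in 95.9% of cells.

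**Figure D5:**
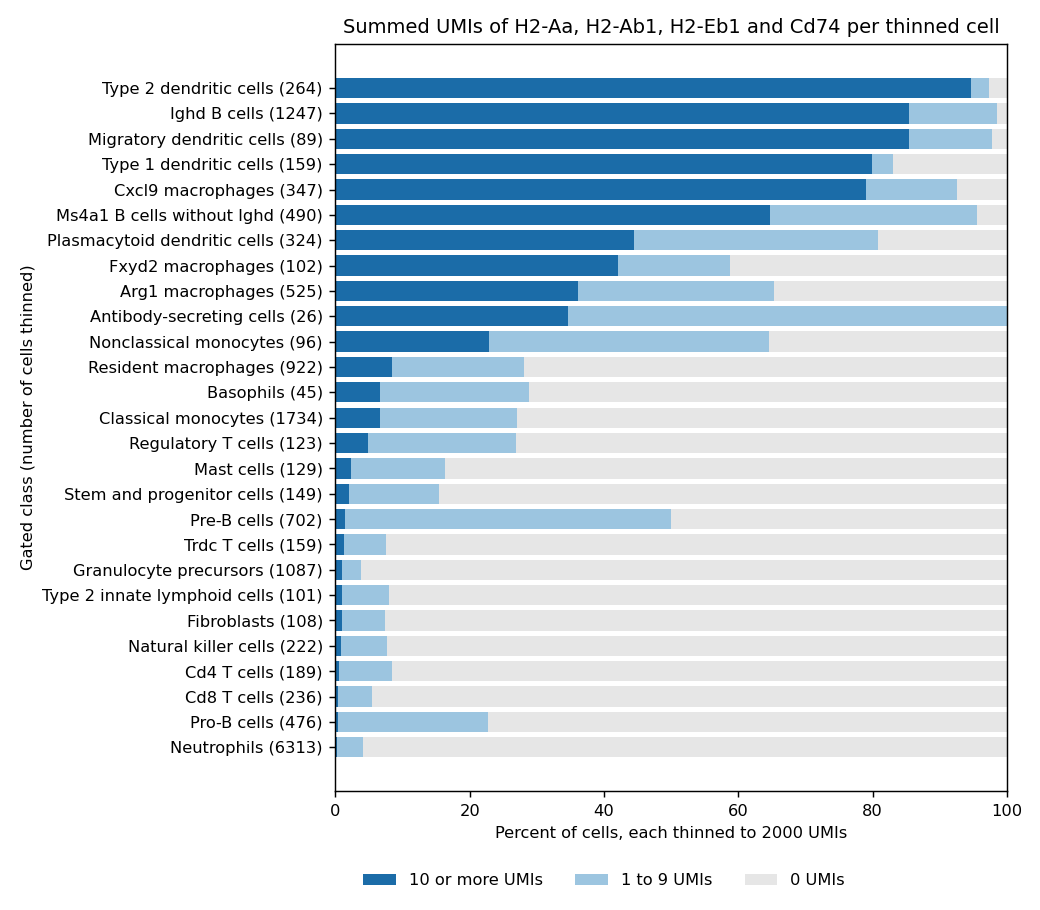
Percent of cells per class, each thinned to 2000 UMIs, with 0, with 1 to 9 and with at least 10 summed UMIs of H2-Aa, H2-Ab1, H2-Eb1 and Cd74. Type 2 dendritic cells are nearly all in the top category (94.7%), Arg1 macrophages split between the lowest (34.7%) and the top (36.2%), and neutrophils are nearly all at 0 (95.9%). Cells of all libraries are pooled.

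Other genes of the pathway were read from lists chosen beside the 7 genes. The 4 further class II genes measured, H2-Eb2, H2-Ob, H2-Oa and H2-DMb2, were all higher in Ighd B cells than in pre-B cells, with a median log2 difference of 3.77, and all higher in type 2 dendritic cells than in monocytes. H2-Ob and H2-Oa, the chains of the DO molecule that holds DM in check in B cells, did not overlap between these B cells, with H2-Ob at 244 CPM in Ighd B cells (182.5 to 267 by library) and 56.5 CPM in pre-B cells (45.0 to 62.7). Of all genes 8.91% were higher and 9.3% lower in Ighd B cells. None of the 15 listed genes for transcription of class II, among them the RFX and NF-Y subunits that bind the X and Y boxes, was higher in Ighd B cells, and Rfxap, Creb1 and Irf4 were lower. Their median log2 difference was -0.30. Of the 6 genes for peptide loading and turnover, Ctss, Ifi30, March1 and Cd83 were higher. Ctss is the protease that trims Cd74 and Ifi30 reduces disulfide bonds of antigens, and March1 marks class II for degradation, which Cd83 opposes.

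In Cxcl9 against Arg1 macrophages the transcription factor genes Irf1 and Irf8 were higher, Irf1 by the narrow margin given above. Ifi30 was higher, at 1138 to 1482 CPM against 612 to 1049 CPM by library, and the proteases Ctsl and Lgmn were lower. Of all genes 2.66% were higher and 3.97% lower in this pair. Of 5 class I genes none was called in either direction, with a median log2 difference of 0.38.

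In migratory against type 2 dendritic cells all 5 class I genes, H2-K1, H2-D1, B2m, Tap1 and Nlrc5, were higher without overlap, as were all 3 costimulatory genes, Cd80, Cd86 and Cd40, beside 8.2% of all genes. Cd86, a ligand of Cd28 on T cells, stood at 1033 to 1408 CPM against 542 to 950 CPM. March1 was lower, at 0 to 17.9 CPM against 43.7 to 84.2 CPM, beside 14.5% of all genes. The median log2 difference was 1.15 for the class I list and -0.51 for the 7 genes, beside -0.25 for all genes.

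H2-Aa over all cells of libraries 1 to 6 was 1612, 712, 2489, 1922, 569 and 559 CPM, and Ciita was 17.5, 11.3, 24.5, 17.0, 7.08 and 7.89 CPM. Libraries 1, 3 and 4 were high and libraries 2, 5 and 6 low, for Cd74 and H2-DMa too. In type 2 dendritic cells the same libraries gave 8373, 7455, 7827, 8825, 7098 and 6263 CPM of H2-Aa, a narrower range than over all cells. The libraries differ in their mix of cells, and fewer cells of a class and less RNA per cell cannot be told apart in these totals.

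The genes whose pattern over 25 classes was most like the mean of the 7, among 7526 genes reaching 50 CPM in 1 class, were Gdi2 (Pearson r 0.839), Irf5 (0.835), Pkib (0.829), Fgd2 (0.829), Erlin1 (0.808), Gm6377 (0.803), Ctsz (0.799), Lactb (0.793), Gosr2 (0.788) and Rala (0.786), leaving out the listed pathway genes. Of these 10 genes 6 were also among the leading 10 by Spearman correlation, all but Gm6377, Ctsz, Gosr2 and Rala. Of the listed genes Ifi30 was the most like, with r of 0.896, followed by Cd40 at 0.849 and Cd86 at 0.837. The classes share libraries and free RNA, so these values are descriptions.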

How the data were processed

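Cells were sorted as CD45+ from digested synovium and sequenced in 6 libraries with the Chromium 3′ version 3.1 chemistry. The authors aligned reads to the mouse build mm10 with Cell Ranger 7.0.0, subtracted free RNA (SoupX 1.6.2), took out doublets (DoubletFinder 2.0.3) and kept, in Seurat 4.3.0, cells of at most 10% mitochondrial content and 200 to 7000 genes. The deposited values are whole-number UMI counts, not normalized, for 20394 genes and 32953 cells in 1 matrix, the lowest cell having 501 genes, with 1724738 entries stored as 0.

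Libraries were taken from the barcode suffix, which was not matched to a sample label, so samples entered no group comparison, and no pairing of vehicle with PEPITEM samples was made, and 0 columns of other samples were present. No annotation of cell types was used here, so 27 classes were gated on raw UMIs of markers, each cell needing all defining markers and none or few of the excluded ones, and cells in exactly 1 class were kept. The gates were rebuilt here, and a difference from the study's classes may come from that. No further doublet caller was run.

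Counts were summed per class and scaled to CPM. Between a pair of classes a gene of at least 5 CPM in 1 class was called when the CPM ranges over libraries with at least 10 cells did not overlap, in 11 pairs, and differences of log2(CPM + 1) were taken from all cells. The rule of ranges that do not overlap was run on simulated counts for Ighd B and pre-B cells. The simulated libraries differed by counting error only, so the run does not show how the rule behaves when libraries differ more. Shares of positive cells have Wilson 95% intervals, which like the floor of 3 counts cover counting error only, and cells were thinned to 2000 UMIs, leaving out 579 shallower cells of all. The 10 genes named for their pattern have the highest Pearson correlation of log2(CPM + 1) with the mean of the 7 genes over classes of at least 50 cells. Alternatives were another marker in each gate, per-cell means, library medians, totals without 162 immunoglobulin genes, 30 cells per library, no level filter, each library left out in turn and classes compared within libraries, and the last, and those for 7 of the comparisons, were added after the data had been seen. The members, lists, gates and comparisons were chosen with earlier results of these data known. Positions are from GENCODE M21 and promoters from RefSeq GRCm38.p6. The work was done in Python 3.11.15 with pandas 2.3.3, scipy 1.17.1 and numpy 2.4.6, and plots were drawn in matplotlib 3.10.9.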

Additional observations from a re-analysis of the deposited data

How the results depend on the processing

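Over the alternatives run, all 7 genes stayed called for Ighd B against pre-B cells, type 2 dendritic cells against classical monocytes, Cxcl9 against Arg1 macrophages and plasmacytoid against type 2 dendritic cells. The Cxcl9 macrophages were chosen by a target of interferon gamma, so the calls of that pair describe the class. Counts moved in other comparisons. With 1 more marker in every gate, 3 genes were higher in pre-B than pro-B cells in place of 1, 2 were higher in Ighd B cells than in B cells without Ighd in place of 4, and 1 was higher in type 2 than type 1 dendritic cells in place of 0. Per-cell means also gave 1 in the last comparison, and 3 for Ighd B cells above B cells without Ighd. When single libraries were dropped, the counts ran from 0 to 2 for type 2 above type 1 dendritic cells (2 without library 1), from 1 to 3 for pre-B above pro-B cells (3 without library 2, and 2 without library 4 or without library 5), from 2 to 7 for resident below Arg1 macrophages (7 without library 2) and from 2 to 4 for migratory below type 2 dendritic cells (4 without library 4). For Ighd B cells above B cells without Ighd they ran from 4 to 5, and for the latter above pre-B cells from 6 to 7. The cause was not tested. In the main setting 8.9% of all genes were called for pre-B above pro-B cells and 4.21% for type 2 above type 1 dendritic cells. The share was 8.98% for resident below Arg1 macrophages and 14.5% for migratory below type 2 dendritic cells. It was 1.32% for Ighd B cells above B cells without Ighd and 6.13% for the latter above pre-B cells. These shares move with the setting too, so the moved counts alone are not read as results about the 7 genes. Without the filter on the level the share of all genes called was lower in all 13 counts. For Ighd B above pre-B cells 926 of 16928 genes were called (5.47%) in place of 883 of 9914 (8.91%). The genes added below the level filter were thus seldom called in that pair.

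A paired comparison, chosen after seeing the data, set the classes against each other within each library that held both and counted genes of the same direction in every library. This replicate block gave 4 genes in place of 2 for migratory below type 2 dendritic cells, 6 in place of 2 for resident below Arg1 macrophages, 5 in place of 1 for pre-B above pro-B cells and 2 in place of 0 for type 2 above type 1 dendritic cells, and moved no other count by over 1.5 times. It asks less than ranges that do not overlap, and more of all genes met it in each comparison. The comparison of antibody-secreting with mature B cells was not run, since 1 library held at least 10 such cells, and neither dendritic comparison, of migratory or type 1 with type 2 cells, had enough libraries with 30 cells. Thinning to 2000 UMIs moved 159 of the shares of positive cells by more than their interval, so shares are read within a depth and not across depths. Asking for at least 2 UMIs per cell moved 141 of these shares. The median over libraries, in place of all cells pooled, moved 114 of the class levels beyond counting error and left 75 within it. Pooled levels therefore depend on how the libraries are weighted. Low values in classes with few cells rest on few UMIs, and free RNA limits what can be seen in neutrophils.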
